A study of Mus musculus with 8 samples.

Results

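Autosomal intergenic H3K27me3 regions were the regions of the deposited H3K27me3 table that lay on chromosomes 1 to 19, were shorter than 50000 bp and overlapped no protein-coding gene of GENCODE mouse release 21. The rule found 4107 such regions among 11707 autosomal regions and 13585 regions in all. It used position and length, not the values that are compared here. Every region of the table had been placed around an H3K27me3 peak of these same libraries, so the presence of the mark in at least 1 genotype was a condition of entry and is not a result.

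H3K27me3 was measured by ChIP-seq, the sequencing of DNA pulled down with an antibody to the mark, in neural stem cells (NSCs) derived from the cortices of E14.5 female embryos of strain C57BL/6J and grown for fewer than 10 passages. The study compared cells carrying GFP-tagged wild-type SMCHD1 (genotype Smchd1GFP+/+, called WT) with cells homozygous for the MommeD43 missense variant on the same tagged allele (genotype Smchd1GFPMommeD43/MommeD43, called MommeD43), each represented by 3 ChIP libraries from separate cell lines and 1 whole cell extract library. All 8 libraries carry the GFP tag on endogenous Smchd1. The deposited values were log2 read counts per region, scaled by the authors to library size and averaged over the 3 ChIP libraries of a genotype, so 1 value per genotype was available, no difference below has a replicate check, and no test between the genotypes was possible.

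H3K27me3 is placed by Polycomb repressive complex 2, which in mammals is recruited mainly to unmethylated, CG-rich DNA such as the CpG islands of silent developmental genes. The mark also spreads away from such sites over gene-poor flanks, and it occurs in deserts that hold distal enhancers and long non-coding RNA genes. SMCHD1 is a non-canonical SMC protein that contributes to silencing of the inactive X chromosome and of several autosomal gene clusters, and the comparison with MommeD43 asked whether this variant was accompanied by a different distribution of the mark. As a check of the cell type, an H3K27me3 region lay over the start of 6 of 10 NSC markers. These were Nes, Hes1, Hes5, Msi1, Prom1 and Id3, with none over Sox2, Vim, Fabp7 or Slc1a3. The mark also lay over 5 of 6 mesoderm and muscle markers, 4 of 4 endoderm and epithelium markers and 4 of 6 neuron markers. It lay over 3 of 4 oligodendrocyte markers, 3 of 6 microglia and blood markers and 1 of 3 endothelium markers. The NSC share was above those of microglia and blood and of endothelium, so the check does not set NSCs apart.

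The sequences that follow show the range of DNA that these regions contain. For each region the 300-base window with the most CG dinucleotides is given, read from the plus strand of GRCm38.p6 in lower case with every CG in capitals (the motif CG reads the same on both strands). The first 3 windows come from regions among the highest in H3K27me3 per kilobase. The window near Nr2f2 (chr7:70280399-70280698) holds 24 CG, that near Six2 (chr17:85800084-85800383) holds 31 CG, and that in Mir124a-1hg, a host gene of the neural microRNA miR-124 (chr14:64587106-64587405), holds 33 CG. The fourth (chr5:119803877-119804176) lies in the region with the largest rise in MommeD43, and holds 32 CG. The fifth (chr3:118433660-118433959, 24 CG) spans the gene of the neuronal microRNA miR-137, whose region was lower in MommeD43. The last (chr6:3904424-3904723, 10 CG) lies in the region with the largest fall among those that reached 50 reads per library in WT or MommeD43.
Nr2f2 flank: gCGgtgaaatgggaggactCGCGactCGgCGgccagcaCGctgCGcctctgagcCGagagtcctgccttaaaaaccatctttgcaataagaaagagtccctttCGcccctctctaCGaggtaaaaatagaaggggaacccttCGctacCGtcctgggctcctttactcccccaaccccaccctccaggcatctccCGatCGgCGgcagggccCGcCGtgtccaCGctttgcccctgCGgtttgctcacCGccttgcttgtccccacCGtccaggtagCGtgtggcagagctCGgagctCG
Six2 flank: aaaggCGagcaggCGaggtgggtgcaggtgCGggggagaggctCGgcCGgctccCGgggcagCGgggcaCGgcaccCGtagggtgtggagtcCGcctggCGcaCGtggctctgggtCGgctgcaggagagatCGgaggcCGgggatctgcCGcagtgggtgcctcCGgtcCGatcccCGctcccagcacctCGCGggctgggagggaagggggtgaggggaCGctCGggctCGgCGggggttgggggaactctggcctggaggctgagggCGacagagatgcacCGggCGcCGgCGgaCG
Mir124a-1hg: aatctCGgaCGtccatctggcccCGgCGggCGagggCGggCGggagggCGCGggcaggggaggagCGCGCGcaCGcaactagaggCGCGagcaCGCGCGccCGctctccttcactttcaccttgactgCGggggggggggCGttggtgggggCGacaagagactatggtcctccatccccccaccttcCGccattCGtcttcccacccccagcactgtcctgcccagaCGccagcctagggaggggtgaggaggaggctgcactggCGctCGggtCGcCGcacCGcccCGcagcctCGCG
Tbx5 flank: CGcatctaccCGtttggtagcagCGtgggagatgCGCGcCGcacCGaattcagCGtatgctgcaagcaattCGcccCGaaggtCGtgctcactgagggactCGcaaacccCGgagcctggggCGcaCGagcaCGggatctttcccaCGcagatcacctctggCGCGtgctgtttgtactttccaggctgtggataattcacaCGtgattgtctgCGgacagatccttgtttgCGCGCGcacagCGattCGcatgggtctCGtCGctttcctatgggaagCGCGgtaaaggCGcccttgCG
Mir137: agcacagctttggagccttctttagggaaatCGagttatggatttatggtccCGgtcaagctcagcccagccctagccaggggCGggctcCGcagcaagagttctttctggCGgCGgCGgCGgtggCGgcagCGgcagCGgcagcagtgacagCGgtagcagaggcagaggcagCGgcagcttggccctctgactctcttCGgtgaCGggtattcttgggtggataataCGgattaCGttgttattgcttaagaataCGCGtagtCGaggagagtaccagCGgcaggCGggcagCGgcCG
Tfpi2 flank: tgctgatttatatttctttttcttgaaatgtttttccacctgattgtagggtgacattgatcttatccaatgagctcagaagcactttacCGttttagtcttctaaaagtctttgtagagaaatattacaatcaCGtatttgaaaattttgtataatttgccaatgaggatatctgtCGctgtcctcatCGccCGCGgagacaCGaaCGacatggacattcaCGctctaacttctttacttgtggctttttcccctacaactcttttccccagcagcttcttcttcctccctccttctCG
The windows from the Mir124a-1hg and Six2 regions had a GC content of 72.3% and 74.7%.

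The intergenic regions were short and scattered. The median length was 8000 bp (quartiles 6200 and 12800 bp, range 5300 to 49550 bp), and together they covered 45.8 Mb. The nearest protein-coding gene start lay a median of 46175 bp away (quartiles 15038 and 122696 bp), and 2524 different genes were nearest to at least 1 region. The nearest start was under 10 kb away for 750 regions, 10 to 50 kb for 1381, 50 to 200 kb for 1378, 200 to 500 kb for 499, and 500 kb or more for 99. The longest regions just inside the limit were both of 49550 bp, near Mvb12b (WT 11.32, MommeD43 11.58) and near Ndn, an imprinted, paternally expressed gene of the Prader-Willi interval (WT 12.09, MommeD43 11.37). At Ndn the direction depended on whether the trend with GC content described below was removed. The difference was -0.71 (SE 0.03) by the authors' scaling and 0.32 after removal. The 3 shortest autosomal regions just outside the limit without a protein-coding gene were 50150, 50600 and 50750 bp long. Their values were 11.74 in WT and 11.45 in MommeD43, 11.45 and 12.30, and 11.25 and 12.73.

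CG-dense DNA was much less frequent in intergenic regions than in regions at genes. A window with at least 20 CG occurred in 295 intergenic regions (7.18%), against 15.3% of gene-body regions without a start, 83.3% of regions under 50 kb that hold a gene start and 83.2% of regions of 50 kb or more. A longer region offers more windows, and these classes had median lengths of 8000, 9050, 12800 and 76025 bp. Within length groups, a comparison added after the data were seen, the share under 6000 bp was 3.65% in intergenic, 6.19% in gene-body and 67.7% in gene-start regions, and from 20000 bp to under 50000 bp it was 13.4%, 23.5% and 88.8%. The ratio of observed to expected CG had a median of 0.195 in intergenic regions and 0.286 in gene-start regions. Median GC content was 45.0% against 47.4%, and a median of 25.3% of the bases of an intergenic region were marked as repeats, against 23.1%.

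Level and difference are kept apart in what follows. A level is the deposited log2 value minus the log2 of the length in kilobases, and a difference is the log2 value in MommeD43 after subtraction of that in WT, in which length cancels. The median level of the intergenic regions was 5.04 in WT (quartiles 4.72 and 5.33) and 5.01 in MommeD43 (quartiles 4.64 and 5.31), which corresponds to 32.9 and 32.2 normalized reads per kilobase. Gene-body regions had median levels of 5.07 and 5.14, gene-start regions 5.33 and 5.43, and regions of 50 kb or more 6.45 and 6.69. The level rose with region length. Among regions under 6000 bp the WT medians were 4.63 in intergenic, 4.58 in gene-body and 4.57 in gene-start regions, and from 10000 bp to under 20000 bp they were 5.25, 5.28 and 5.45. Of the 4 length groups below 50 kb, intergenic regions had a higher WT median than gene-body regions in 3, the exception being 10000 bp to under 20000 bp, and a lower MommeD43 median in all 4, by 0.05 to 0.12. The counts recovered behind the values had a median of 79.5 reads per library in WT (quartiles 53.2 and 150.2) and 97.2 in MommeD43 (quartiles 63.1 and 182). At these depths the smallest possible counting error of a difference had a median of 0.13.

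The median difference over the intergenic regions was -0.04, with quartiles of -0.31 and 0.21, and 1914 of 4107 (46.6%) were higher in MommeD43. The values were scaled to library size, so a difference is in the share of reads and not in the amount of the mark. The paper regards ChIP-seq as a poor means of comparing how much of a histone mark is present. Its immunofluorescence showed a modest decrease of H3K27me3 in MommeD43, on the inactive X and in whole nuclei. Cells were measured in bulk, so a change in every cell and a change in a share of the cells cannot be told apart. By the authors' scaling all other autosomal classes had a positive median, which was 0.08 in gene-body regions, 0.15 in gene-start regions and 0.26 in regions of 50 kb or more. With the GC trend removed these medians were -0.014, 0.013 and 0.082. By the authors' scaling 86 intergenic regions (2.09%) had risen in MommeD43 to at least double the WT count, a difference of 1, and 164 (3.99%) were lower by as much. Over all autosomal regions the shares were 2.28% higher and 2.93% lower, and over all regions of the table, X-linked ones included, 6.09% higher and 3.03% lower. With the totals of the genotypes set equal the counts were 45 and 326, and with a trend with GC content removed, as described below, they were 79 and 26. By the authors' scaling the share of intergenic rises was close to the autosomal background, and that of falls was above it. Gene-body regions had nearly the same share of falls, 3.73%, with 2.28% rises. Of the 721 intergenic regions with a mean count under 50 reads per library, 96 were lower by at least 1, so that 68 of the 164 falls lay in the 3386 deeper regions.

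**Figure D1:**
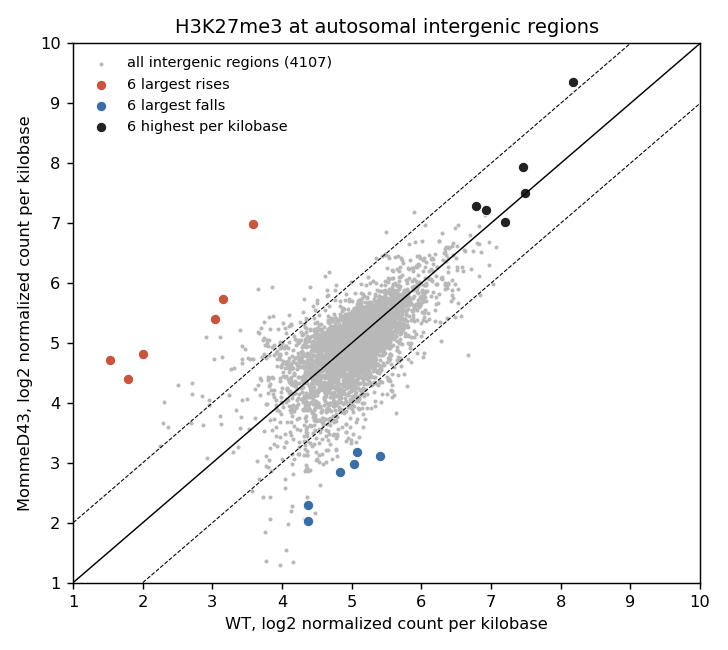
Level of each of the 4107 intergenic regions in WT (x axis) and MommeD43 (y axis), both in log2 normalized count per kilobase. In colour are the 6 largest rises, the 6 largest falls and the 6 highest regions. The rises and falls were sought only among regions that reached the minimum of reads per library in WT or MommeD43. Some regions below that minimum fell further. The solid line marks equal levels and the dashed lines a difference of 1, and the 6 rises lie at WT levels under 4 while the 6 highest regions lie between 0.19 below and 1.17 above the line of equality.

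Across the intergenic regions the genotypes were related with a Pearson's r of 0.912 (Spearman's rho 0.905). Regions are not independent replicates, and this value is carried in part by length, since long regions hold more reads. Per kilobase of region r was 0.642, compared with 0.633 in gene-body regions, 0.829 in gene-start regions and 0.901 in regions of 50 kb or more.

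The difference followed base composition. Over the 4107 intergenic regions Spearman's rho between the difference and GC content was 0.56, a description across regions that share the same 6 libraries. GC content was nearly unrelated to the level in WT (rho = 0.10) but related to the level in MommeD43 (rho = 0.50). In the group of lowest GC content, under 41.1%, 603 intergenic regions had a median difference of -0.60, and in the group of highest GC content, over 51.3%, 103 had a median of 0.30. The same held for gene-body regions, whose medians in these groups were -0.62 and 0.35. Intergenic regions were more numerous at low GC content, and after the trend with GC content was removed, their median difference was -0.02 and that of all other autosomal regions 0.01. With the trend removed, 55 of the 86 rises but 25 of the 164 falls were still past 1. The part of library composition in this trend was not tested, since the values of single libraries and of whole cell extract were not analysed here.

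**Figure D2:**
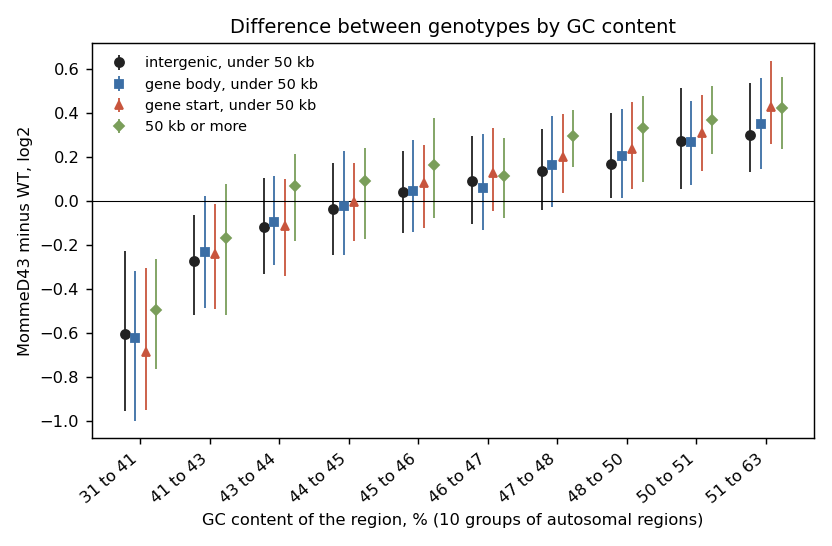
Difference between MommeD43 and WT (log2, y axis) in 10 groups of autosomal regions by GC content (x axis), for intergenic regions, gene-body regions, gene-start regions and regions of 50 kb or more; points are medians and bars run from the lower to the upper quartile. Intergenic regions climb from -0.60 to 0.30 and stay close to gene-body regions of the same GC content.

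Sorting by the densest CG window gave the same picture from another angle. The 224 regions whose best window held at most 5 CG had median levels of 4.74 in WT and 4.24 in MommeD43, and a median difference of -0.54. Of these, 41 were lower by at least 1 and 1 was higher. The 1822 regions with 6 to 10 CG had a median difference of -0.12, the 1466 with 11 to 15 CG one of 0.05, and the 101 with 30 or more CG, the kind of window printed above for Six2, Mir124a-1hg and Tbx5, one of 0.14. Of the 101, 66 were higher in MommeD43. CG density and GC content move together. Once the GC trend was removed, the median difference was -0.088 for at most 5 CG and -0.024 for 30 or more CG, which turned the direction of the latter, and the regions with a CG-dense window exceeded the others by 0.05 in place of 0.18.

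The difference varied little with distance from genes up to 500 kb. The median difference was -0.02 under 10 kb, -0.01 at 10 to 50 kb, -0.06 at 50 to 200 kb and -0.08 at 200 to 500 kb, while the WT level stayed between 5.02 and 5.07. In the 99 regions at 500 kb or more the median level was 4.81 in WT and 4.45 in MommeD43, and the median difference was -0.39. Of these 99 desert regions, 21 were lower by at least 1 and 6 were higher. Their median GC content was 40.2%, and with the GC trend removed their median difference was 0.02. The 3 regions farthest from any start lay 2190097 bp from Pik3c3 (difference -0.39, counting SE 0.20), 2077494 bp from Celf4 (-0.24, SE 0.10) and 2064300 bp from Tenm3 (-1.18, SE 0.10). With the GC trend removed these 3 differences were -0.0086, 0.31 and -0.22, so that the Tenm3 region was no longer past 1 and the Celf4 region turned its direction. The region far from Tenm3, a teneurin adhesion gene, holds the non-coding gene C130073E24Rik.

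**Figure D3:**
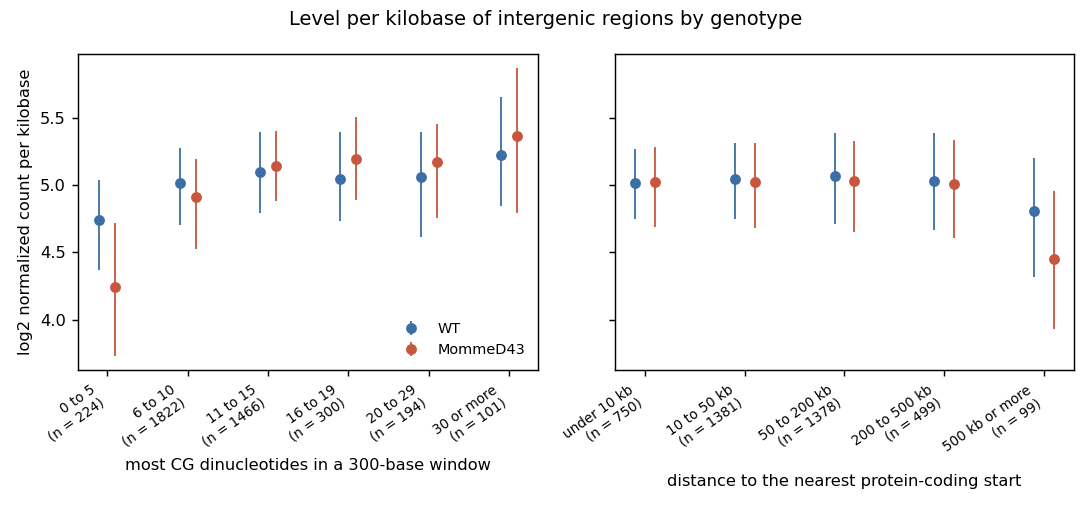
Level in log2 normalized count per kilobase (y axis) of intergenic regions in WT and MommeD43, by the largest number of CG in a 300-base window (left) and by distance to the nearest protein-coding start (right); points are medians, bars run between the quartiles, and n is the number of regions. MommeD43 lies below WT at 0 to 5 CG and at 500 kb or more, and above WT at 16 CG or more.

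The highest intergenic region per kilobase was chr17:39840201-39851800, which had a value of 11.72 in WT and 12.89 in MommeD43, or 290.5 and 656 normalized reads per kilobase. It holds the non-coding genes Gm42418 and AY036118 and the ribosomal RNA gene CT010467.1, and the third highest, chr3:96358101-96367000 (10.64 and 10.66), holds Rnu1b1, a gene of U1 spliceosomal RNA. Both sequence families have near-identical copies elsewhere in the genome, so the reads counted there cannot be assigned with confidence. The second, 303987 bp from Parp8 on chromosome 13 (12.34 and 12.81), and the fourth, 130317 bp from Opa1 on chromosome 16 (12.33 and 12.13), hold no gene of the annotation. The fifth was the Mir124a-1hg region (12.29 and 12.58) and the sixth a region of 24500 bp near Nr2f2, which encodes the nuclear receptor COUP-TFII (11.39 and 11.90). Of these 6 regions 4 were higher in MommeD43, by 0.29 to 1.17, and the region near Opa1 was lower (difference -0.19, counting SE 0.03). The difference of 0.02 at Rnu1b1 had a counting interval of -0.08 to 0.12 and was negative with equal totals (-0.22), with the autosomal median set to 0 (-0.056) and with the GC (-0.072) or abundance (-0.12) trend removed.

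A gene of the developmental list, which holds 351 of 21951 protein-coding genes (1.60%), was the nearest start of 213 intergenic regions (5.19%), with 94 such genes represented. The same share was 4.22% over all autosomal regions, 2.91% over gene-body regions and 14.3% over regions of 50 kb or more, so the intergenic share was near the autosomal background. Genes in deserts have more intergenic DNA to be nearest to, and these 213 regions lay farther from their start than the others, with medians of 91002 and 43769 bp. Their median difference was 0.07 against -0.04 for the other 3894 regions, at median GC contents of 44.9% and 45.0%. Among them 20 (9.39%) were higher by at least 1 and 8 (3.76%) lower, beside 1.69% and 4.01% of the others. The 20 rises belonged to 9 genes, and 11 of them lay on chromosome 5. Without that chromosome 9 of 196 regions (4.59%) were higher by at least 1, near 4 genes, beside 1.36% of the others. The medians differed by 0.12 both by the authors' scaling and with the GC trend removed.

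The 8 regions of highest level with such a neighbour had values between 10.14 and 12.13 in WT and between 10.26 and 12.58 in MommeD43. The region near Nr2f2 was described above. The region of 48500 bp near Six2, a homeodomain factor of nephron progenitors, had values of 12.13 and 12.58, and its neighbour in rank, near Irx1, an Iroquois homeodomain gene, had 10.87 and 11.42. The region near Otx2, a homeodomain factor of the anterior brain, held 11.08 and 11.23. The region near Tfap2c, an AP-2 factor of trophoblast and germ cells, stood out with 10.52 in WT and 11.87 in MommeD43, a difference of 1.36 (counting SE 0.05). The regions near Twist2 and Pax3, a basic helix-loop-helix factor and a paired-box factor of neural crest and muscle, differed by -0.23 (SE 0.06) and -0.04 (SE 0.04).

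Regions around 1 gene could move the same way, as the following genes show, which were chosen after their values were seen. All 5 regions nearest to Tfap2c were higher in MommeD43, by 0.98 to 1.41, and all 4 nearest to Nkx6-1, a homeodomain factor of ventral neural progenitors, by 1.44 to 2.08. The 5 regions near the muscle segment homeobox genes Msx1 and Msx2 were higher by 0.55 to 1.27. The 9 regions around Nr2f2 had a median difference of 0.43, with 6 above 0, and the 6 regions near Bcl11a, a zinc-finger repressor, were all above 0 with a median of 0.48. In the opposite direction, the 3 regions near Zic1, a zinc-finger factor of the cerebellum, differed by -0.71 to -1.98, the 6 near Olig3 by -0.08 to -0.61 and the 6 near Pax3 by -0.04 to -1.38. These falls lay at a GC content of 36.6% to 40.1% near Zic1, 38.2% to 44.5% near Olig3 and 34.7% to 42.4% near Pax3. With the GC trend removed, the regions near Zic1 differed by -0.13 to -0.94, while 1 of 6 near Olig3 and 3 of 6 near Pax3 were above 0. The regions near Tfap2c, Nkx6-1, Msx1, Msx2, Bcl11a and Nr2f2 were then all above 0. The Iroquois genes had the most regions of any family, with 29 regions and a median of 0.14, of which 21 were above 0 and 1 was past 1. Neighbouring regions share chromatin and sequence composition and are not independent.

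The 5 ranks of genes nearest to most intergenic regions were filled by 7 genes because of ties. Gm4791 on chromosome 9 was nearest to 16 regions, with a median difference of -0.08. Cd83 and Nedd1 each had 12, with medians of -0.09 and 0.09. Id4, which encodes an inhibitor of basic helix-loop-helix factors and is active in neural stem cells, had 11 regions, of which 1 was above 0, and their median was -0.63 at a median GC content of 42.1%. Wdr11 also had 11 regions with 1 above 0 (median -0.33, GC content 45.0%), whereas the 11 near Pmfbp1 included 10 above 0 (median 0.18). Irs2, an adaptor of insulin signalling, had 11 with a median of 0.05.

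The largest rises were concentrated on chromosome 5. The region chr5:119789001-119815900, 16768 bp upstream of Tbx5, a T-box factor of heart and forelimb, had a value of 8.33 in WT and 11.73 in MommeD43, a difference of 3.40 (95% counting interval 3.23 to 3.57). The region over Tbx3os1, upstream of the limb and cardiac T-box gene Tbx3, had 4.29 and 7.48 (difference 3.19, SE 0.35), and behind its WT value lay 6.00 reads per library. The next in order, 74082 bp downstream of Tbx3 and 522122 bp downstream of Med13l, a Mediator kinase-module gene, differed by 2.81 (SE 0.29) and 2.61 (SE 0.32). Their WT values were 4.95 and 4.68, and the 4.29 at Tbx3os1 was the lowest WT value of all 4107 regions. The fifth, chr12:110182401-110192350, lay 86718 bp upstream of the imprinted deiodinase gene Dio3 and rose from 6.46 to 9.05 (difference 2.58, SE 0.17), and the sixth, on chromosome 2 near 1700021F07Rik, had 6.90 and 9.26 (difference 2.36, SE 0.15). Only the region near Tbx5 reached 50 reads per library in WT (98.5 reads). The other 5 had 6.00 to 36.5 reads in WT and met the minimum of 50 only in MommeD43, where they are high, so the order of these rises was in part fixed by the choice. The 6 differences were 2.05 to 3.23 without the GC trend.

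The interval within 1.5 Mb of the Tbx5 start on chromosome 5, chosen after the values were seen and holding the 4 largest of these rises, had 12 intergenic regions. All 12 were higher in MommeD43, 10 of them by at least 1, a description that in part restates the choice. Their median level was 3.71 in WT and 5.27 in MommeD43, and their median difference was 1.52. The region farthest from the T-box genes on the Med13l side (8.05 and 8.23) differed by 0.18, and those nearest to Lhx5, a LIM-homeodomain gene, by 1.08 and 1.21. Chromosome 5 as a whole carried 27 of the 86 rises and 2 of the 164 falls on its 237 regions, and its median difference of 0.14 was the highest of the 19 autosomes. Chromosome 6 and chromosome 16 had the lowest medians, both -0.16. Chromosomes 3, 16, 18 and 19 had 0 rises past 1, and chromosome 9 had the most falls, 20 of 298.

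**Figure D4:**
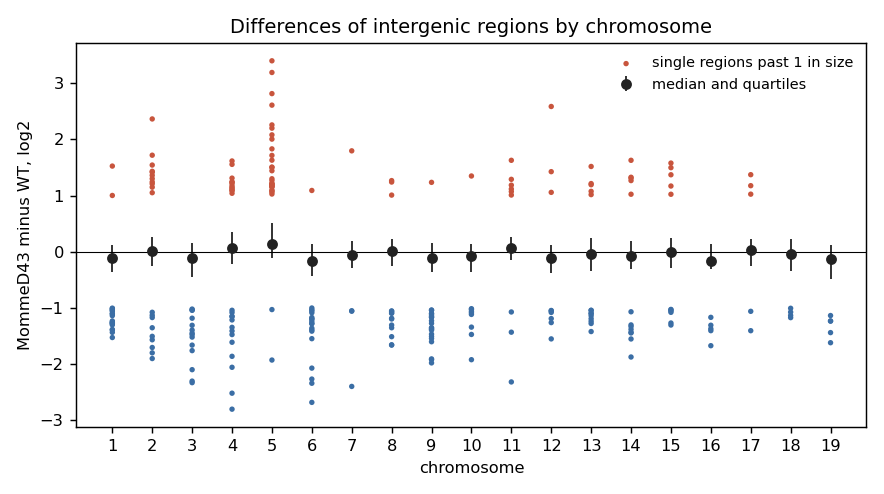
Difference between MommeD43 and WT (log2, y axis) of intergenic regions on each autosome (x axis). Black points and bars are the median and quartiles of all regions, and coloured dots are single regions that differ by at least 1, of which chromosome 5 has 27 above 0.

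When regions past 1 in the same direction and less than 1 Mb apart were joined, the 86 rises formed 41 runs, of which 24 were single regions, and 8 runs of 3 or more held 44 of the 86. The 164 falls formed 124 runs, of which 102 were single, and 11 runs of 3 or more held 40. These runs rest on the authors' scaling and were not formed again under other settings. With the GC trend removed 55 of the 86 rises and 25 of the 164 falls were still past 1. Besides the T-box interval, the longest run of rises held 9 of 11 intergenic regions between Grik3, a kainate receptor gene, and Csf3r on chromosome 4, which differed by 1.09 to 1.61. A run of 6 of 10 regions on chromosome 2 extended from Tfap2c past Pmepa1 (1.24 to 2.36), and a run of 5 of 5 on chromosome 5 lay near Gpat3 and Nkx6-1 (by at least 1.44). The longest run of falls held 6 of 9 regions near Ets1 and Kirrel3 on chromosome 9 (-1.36 to -1.92), and another held 5 of 10 near Rcn1, Dnajc24 and Mpped2 on chromosome 2 (-1.08 to -1.90).

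The largest falls, sought among regions that reached 50 reads per library in WT or MommeD43, had a GC content of 33.9% to 37.8%. All 6 met that minimum only in WT, where they are high, with 59.2 to 135.5 reads against 17.5 to 38.2 in MommeD43, so their order was in part fixed by the choice. The region chr6:3900351-3913900, downstream of the protease inhibitor gene Tfpi2, had a value of 8.13 in WT and 5.79 in MommeD43, a difference of -2.34 (95% counting interval -2.74 to -1.94). A second region near Tfpi2 had 7.60 and 5.53 (difference -2.07, SE 0.23). The region 151867 bp downstream of Cxxc4, a CXXC-domain inhibitor of Wnt signalling, had 8.79 and 6.49 (difference -2.30, SE 0.16). In the run of regions near Cxxc4 all 3 were lower by at least 1, which in part restates how runs were formed. The remaining 3 lay 1460147 bp from the kinase gene Map3k7 (8.04 and 5.98), 117141 bp upstream of Zic1 (8.33 and 6.35) and 150152 bp upstream of Dnajc24 (8.55 and 6.65), with differences of -2.06, -1.98 and -1.90. After removal of the GC trend these 6 differed by -0.87 to -1.48. The fitted trend is constant below the centre of its lowest bin, so regions of the lowest GC content all received the same correction. What remains of these falls may therefore still hold part of the trend. A fall that lost less of its size, chosen after its values were seen, was that of chr14:115009551-115043350 over the start of Mir17hg, the host gene of an oncogenic microRNA cluster, with 11.74 in WT and 9.87 in MommeD43 (difference -1.87, SE 0.05, and -1.60 with the GC trend removed), a GC content of 42.1%, below the lower quartile of 42.5% of all intergenic regions, and a window of 59 CG.

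Non-coding genes were present in 971 intergenic regions (23.6%) and the start of one in 460 (11.2%). Long intergenic non-coding RNA genes overlapped 746 regions, antisense genes 96 and miRNA genes 32. Regions with the start of a non-coding gene had a CG-dense window more often, in 19.6% against 7.18% of all intergenic regions, and median levels of 5.20 in WT and 5.22 in MommeD43, but they were also longer, with a median of 12425 bp. From 6000 bp to under 10000 bp a CG-dense window occurred in 19.7% of regions with such a start and 4.62% of those without, and the WT medians were 4.97 and 4.99. The median difference was -0.01 in regions with a non-coding gene, 0.03 in regions with the start of one and -0.04 in regions without. With the GC trend removed these medians were -0.028, -0.010 and -0.015, so the order of regions with and without a non-coding gene turned.

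Of 61 listed non-coding genes known from brain development, imprinting or Polycomb biology, 34 were overlapped by some region of the table and 12 by 16 intergenic regions. Their median difference was 0.10, with 10 of 16 above 0, 1 higher by at least 1 (Tbx3os1) and 1 lower (Rmst). Rmst, a long non-coding RNA of neurogenesis, spanned 3 regions that differed among themselves. The region that also holds Mir135a-2 had 10.51 in WT and 11.03 in MommeD43 (difference 0.52, SE 0.05), the middle one 6.45 and 4.98 (-1.47, SE 0.29) and the last 11.00 and 10.38 (-0.62, SE 0.05). Removal of the GC trend moved these to 1.13, -0.44 and -0.01. The 2 regions over Sox2ot, a long non-coding RNA gene with the neural stem cell gene Sox2 in an intron, differed by 0.02 (SE 0.12) and 0.40 (SE 0.12), and the 2 over Otx2os1 by 0.16 (SE 0.04) and 0.07 (SE 0.06). Pax6os1, antisense to the start of the eye and forebrain factor Pax6, had 8.86 and 8.79.

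Imprinted non-coding RNAs were also represented. The region over H19, a maternally expressed RNA that contains Mir675, had 8.02 in WT and 8.34 in MommeD43 (difference 0.32, SE 0.12). The region over part of Airn, the paternally expressed antisense RNA of Igf2r, had 8.36 and 8.05 (difference -0.31, SE 0.12). With the GC trend removed the H19 difference was -0.10 and the Airn difference -0.40, so the direction at H19 depended on this choice.

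Mature microRNAs of the RefSeq table lay inside 20 intergenic regions, 35 mature forms in all. Those of known neural or developmental microRNAs are given 5′ to 3′ with the seed, bases 2 to 8, in capitals.
miR-7a-5p: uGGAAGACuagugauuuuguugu
miR-7b-5p: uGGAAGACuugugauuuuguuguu
miR-137-3p: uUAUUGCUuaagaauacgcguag
miR-125b-5p: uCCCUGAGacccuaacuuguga
miR-138-5p: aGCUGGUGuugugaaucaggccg
miR-135a-5p: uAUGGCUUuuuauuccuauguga
miR-205-5p: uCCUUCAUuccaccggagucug
The first 2 share the seed GGAAGAC and are encoded in separate intergenic regions, Mir7-2 on chromosome 7 and Mir7b on chromosome 17, whose differences had opposite signs: 10.33 in WT and 9.99 in MommeD43 at Mir7-2 (difference -0.34, SE 0.06), 10.22 and 10.56 at Mir7b (0.34, SE 0.06). No other seed was shared among the forms shown.

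The 20 microRNA regions had differences from -0.95 to 0.55 with a median of 0.14. Of these, 12 were above 0 and 0 were past 1 in either direction. The Mir137 region was the lowest, with 11.35 in WT and 10.40 in MommeD43 (difference -0.95, SE 0.05). Its GC content was 37.5%, although the window printed above has 60.3%, and after removal of the GC trend the difference was -0.08. The regions of Mir125b-1 (8.97 and 8.76) and Mir138-1 (11.26 and 11.21) differed by -0.21 (SE 0.09) and -0.05 (SE 0.04), and that of Mir205, an epithelial microRNA, by 0.14 (SE 0.14). The regions over both miR-124 host genes in the list are not among these 20, as no mature miR-124 was placed in them. They were higher in MommeD43, Mir124a-1hg by 0.29 (SE 0.03) and Mir124-2hg by 0.39 (SE 0.11).

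**Figure D5:**
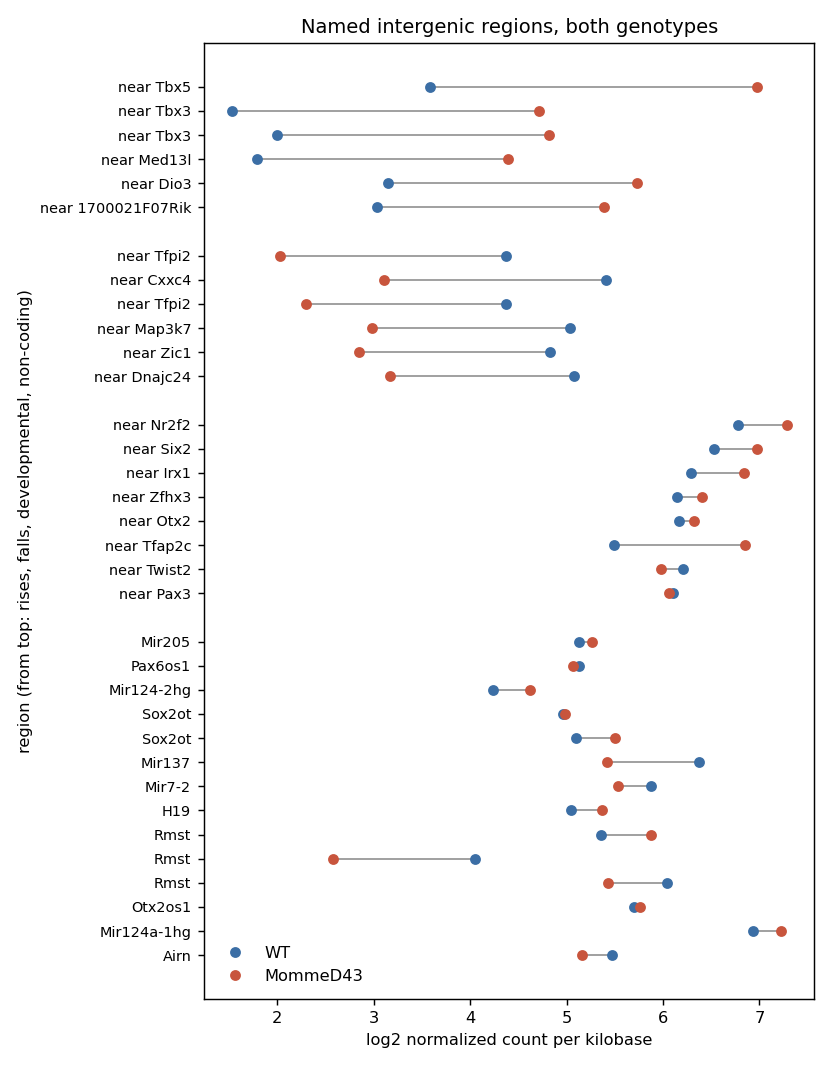
Level in log2 normalized count per kilobase (x axis) in WT and MommeD43 of named intergenic regions (y axis). From the top are the 6 largest rises, the 6 largest falls and the 8 highest regions with a developmental neighbour. Below them are the regions over listed non-coding genes that are not already shown. The rises and falls were sought only among regions that reached the minimum of reads per library in WT or MommeD43. A grey line joins the genotypes, and each point is the authors' mean of 3 libraries without an error bar.

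Among the intergenic regions of highest level that hold a non-coding gene longer than 200 bp, 3 differed by more than 1. The ribosomal RNA region on chromosome 17 was given above, and its difference of 1.17 was 0.84 with the GC trend removed, 0.92 with a trend with abundance removed and 0.93 with equal totals, so that it was no longer past 1 under these settings. The region chr5:106541301-106580350, 28748 bp upstream of Gm17304, had 11.17 in WT and 12.47 in MommeD43 (difference 1.30, SE 0.04), and its densest window held 46 CG. The region chr4:88915401-88963150, which lies 35200 bp from the interferon gene Ifne, had 12.61 and 11.57 (difference -1.04, SE 0.03), and its densest window held 58 CG at a GC content of 40.5% for the whole region. With the GC trend removed the differences of the last 2 were 1.35 and -0.59, so that the region near Ifne was no longer past 1 either.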

How the data were processed

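Per the labels and the study's methods, the authors trimmed reads with Trim Galore 0.4.4, aligned them with Bowtie2 2.3.4.1 to GRCm38.p6 and counted them in SeqMonk. Peaks were called per genotype on merged libraries against whole cell extract, then widened and joined. The labels name micrococcal nuclease digestion where the methods describe shearing. The deposited values are log2 counts scaled to library size, the authors' mean over the 3 libraries of a genotype, not divided by length and without input subtraction. The region names carry another end than the end column, which was used here.

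Read counts were recovered because the antilog of 3 times a value is a whole multiple of 1 constant per column. Of low products, 1138 of 1139 (99.9%) in WT and 681 of 684 (99.6%) in MommeD43 came within 0.1 of a whole number. Counting errors assume Poisson counts, leave out all variation between cell lines, and cover counting error only, as no molecular identifiers separate duplicate reads. Genes came from GENCODE release 21, microRNAs from RefSeq on the same build, and GC content, repeats and CG windows from GRCm38.p6. All 4107 regions had a GC value.

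Named regions were the 6 highest per kilobase, the 6 largest rises and falls with at least 50 reads in either genotype, those over listed non-coding genes, the 8 highest with any non-coding gene over 200 bp, the 8 highest with a developmental neighbour, the 3 longest, the 3 farthest, and the genes nearest to most regions. The developmental list was matched by symbol, leaving out 12 symbols that share only letters with a family. Members and lists were chosen with earlier results of these data known. Trends were running medians over 40 bins of autosomal regions. Removal of the GC trend was tried on data simulated with a known GC trend and counting noise only, and removal of the abundance trend was not tested. Other settings were equal totals, an autosomal median of 0, a mean count of 50, a pseudocount of 10, trimming by 2500 bp, and stricter gene and length limits. No column of the table was left unused. Python 3.11.15, numpy 2.4.6, pandas 2.3.3 and matplotlib 3.10.9 were used.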

Additional observations from a re-analysis of the deposited data

How the results depend on the processing

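Each value is the authors' mean of 3 libraries, so leaving out a replicate could not be run. No paired analysis was possible because the table carries 1 pooled column per genotype. The number of intergenic regions was 2867 to 5098 under other limits on genes and length. Setting the totals equal moved every difference by -0.24, and the median difference was then -0.28, with 45 rises and 326 falls past 1. It was -0.11 with an autosomal median of 0, -0.020 without the GC trend, -0.078 without a trend with abundance, -0.011 where the mean count reached 50, -0.059 with no protein-coding gene within 10 kb and, in a setting chosen after seeing the data, -0.048 without chromosome 5. Falls numbered 26 without the GC trend, and regions past the count minimum included 55 rises and 68 falls.

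The median level per kilobase was 5.13 in WT and 5.11 in MommeD43 with the count minimum, 5.05 and 5.02 for trimmed regions, 5.05 and 5.003 with no gene within 10 kb, and 8.02 and 7.9997 without division by length. The difference from other autosomal regions, -0.17, became -0.028 without the GC trend, -0.11 without the abundance trend and -0.15 with the count minimum. Regions at 200 kb or more minus those under 10 kb gave -0.10, against 0.028 without the GC trend and -0.13 with the count minimum. Regions with a non-coding gene minus those without gave 0.03, against -0.013 without the GC trend. The correlation of the genotypes was 0.642 per kilobase. Chosen after seeing the data, Spearman's rho with GC content was 0.51 with the count minimum, 9 in place of 20 rises near developmental genes were left without chromosome 5, and a CG-dense window went with 0.050 without the GC trend.

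Of 47 named regions, 18 were past 1, of which 12 were still past 1 in the same direction without the GC trend and 17 or 18 under the other scalings and pseudocount. None of these 18 changed sign under the scalings, trends and pseudocount. Among all 47, beyond counting error, the regions near Ndn and Celf4 turned from -0.71 and -0.24 to 0.32 and 0.31 without the GC trend, and 1 region near Otx2 turned with equal totals. Depth limits short regions most, and the spread between cell lines is not known.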
